A study of Arabidopsis thaliana with 12 samples.

Results

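The transcripts of 3 genes of *Arabidopsis thaliana* whose products act on RNA were followed over 12 arrays of total RNA. They were AT5G10910, a ribosomal RNA methyltransferase of the MraW type, AT1G76050, a pseudouridine synthase, and AT4G29750, an RNA-binding protein with the CRM domain. Each was represented by the 1 feature that the array annotation assigns to it and to no other gene, so the 3 features stood among 692 features with a single gene and 3439 features in all. None of the 870 features annotated to several genes held any of the 3. The genes were chosen by their measured difference between ppi1 and wild type (WT) on these same 12 arrays, each having passed the threshold of that comparison. All levels and differences of the 3 genes below are therefore a description, with no test.

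The study compared 6 WT arrays with 6 arrays of the ppi1 mutant, both of ecotype Columbia 0. ppi1 is known as a T-DNA insertion mutant of TOC33, a receptor of the machinery that imports precursor proteins into chloroplasts, and TOC33 itself was not analysed here. The question is which transcript levels change when chloroplasts import fewer proteins. The sources used here name neither the tissue nor the age of the plants, and the labels do not say whether the 6 arrays of a group came from separate plants, so their spread may be technical. Over all features, adjacent replicates of a group (1 and 2, 3 and 4, 5 and 6) had a consensus correlation of 0.646 in limma. If they are repeats of the same samples, which the labels do not say, each n = 6 below stands for 3 samples and the SEs and adjusted p are too small. In total RNA of a whole sample, fewer cells that express a gene and less of its RNA per cell cannot be told apart.

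Chloroplast ribosomes resemble those of bacteria. RNAs of the chloroplast are trimmed, spliced or chemically modified by proteins that the nucleus encodes and the chloroplast imports. Bacterial MraW, also called RsmH, adds a methyl group to a cytidine of the small-subunit ribosomal RNA. Pseudouridine synthases turn a uridine of an RNA chain into pseudouridine without cutting the chain. The CRM domain is related to the bacterial protein YhbY, which associates with precursors of the large ribosomal subunit, and plant proteins such as CRS1, CAF1 and CAF2 use it to promote the splicing of group II introns in chloroplasts. In this report the functions named for the 3 genes rest on their families, and direct evidence on the single genes was not consulted. A splicing role of AT4G29750 itself is not recorded in the sources used here.

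The methyltransferase and pseudouridine synthase transcripts were higher in ppi1 and the CRM-domain transcript was lower. AT5G10910 was at 1.30 times and AT1G76050 at 1.46 times the WT level, and AT4G29750 was at 59.6% of it. These ratios were taken from the difference between mean log2 signals, so they are not exactly the ratios of the linear means below. The signal is quantile-normalised relative intensity, a linear unit without absolute meaning, and the ratios are differences relative to the other features of an array. All 3 passed the threshold that chose them, a Benjamini-Hochberg adjusted p under 0.05 in limma. Over the whole array 8.44% of 3365 features passed it, 3.15% as higher and 5.29% as lower in ppi1, and nothing is read from the members' count. With the replicate number as a block, 517 features passed in place of 284, and with adjacent replicates averaged 4 did. None of the 3 had an array at the floor of 0.118, below which signals were not distinguished. Their lowest signals were 7.50, 4.28 and 15.5 times that floor for AT5G10910, AT1G76050 and AT4G29750.

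AT5G10910, the methyltransferase gene, ranged from 0.883 to 0.969 over the WT arrays, with a median of 0.903. In ppi1 it ranged from 1.01 to 1.38, with a median of 1.18. The groups did not overlap, as for 6.09% of all features, and the gap between the highest WT and the lowest ppi1 array was 0.06 on the log2 scale. Replicates 5 and 6 were the highest ppi1 arrays, at 1.38 and 1.36, and replicate 4 was the lowest, at 1.01. The mean was 0.913 ± 0.0299 over the WT arrays and 1.20 ± 0.150 over the ppi1 arrays (SD, n = 6 each), a log2 difference of 0.38 (SE 0.0750).

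AT1G76050, the pseudouridine synthase gene, ranged from 0.504 to 0.623 in WT, with a median of 0.564. In ppi1 it ranged from 0.616 to 1.09, with a median of 0.784. The groups overlapped by 1 array, since replicate 4 of ppi1, at 0.616, lay just under replicate 6 of WT, at 0.623. Replicates 5 and 6 of ppi1 stood highest, at 1.09 and 1.04, as they did for AT5G10910. Its mean level was 0.560 ± 0.0490 in the WT group and 0.833 ± 0.190 in the mutant (SD, n = 6 each), a log2 difference of 0.55 (SE 0.137).

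AT4G29750, the CRM-domain gene, ranged from 3.18 to 4.58 in WT, with a median of 4.14. In ppi1 it ranged from 1.82 to 2.88, with a median of 2.56. The groups did not overlap, as for 6.09% of all features. The gap between the lowest WT array, replicate 5, and the highest ppi1 array, replicate 6, was 0.14 on the log2 scale. Here the ppi1 arrays farthest from WT were replicates 1 and 2, at 1.82 and 1.91. Its mean level was 4.04 ± 0.516 in the WT group and 2.43 ± 0.464 in the mutant (SD, n = 6 each), a log2 difference of -0.75 (SE 0.137).

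**Figure D1:**
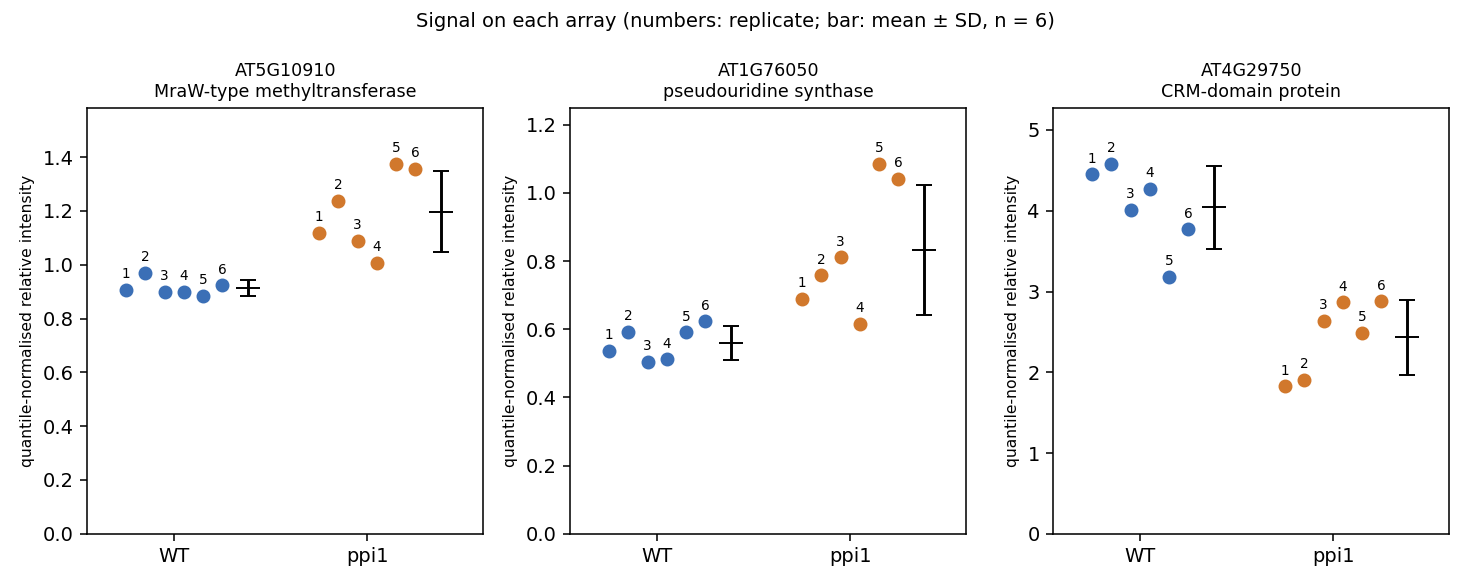
Quantile-normalised relative intensity (linear axis from 0, own scale in each panel) of the 3 genes on every array, with the replicate number above each point and the mean ± SD of 6 arrays beside each group. The groups are apart for AT5G10910 and AT4G29750, as for 6.09% of all features. For AT1G76050, ppi1 replicate 4 lies within the WT range.

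Among the 676 single-gene features tested, AT1G76050 had the 9th largest increase and AT4G29750 the 8th largest decrease, while AT5G10910 was 32nd by size of increase. In pooled within-group SDs (log2 scale), the difference was 2.88 for AT5G10910, 2.22 for AT1G76050 and 3.02 for AT4G29750. In brightness over all 12 arrays, a property of the feature as much as of the transcript, they lay at the 79.6, 59.5 and 96.2 percentile of all features, in that order.

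On the log2 scale the spread between arrays was wider in ppi1 than in WT for all 3 genes. On the linear scale AT4G29750 had the narrower spread in ppi1, with an SD of 0.464 against 0.516 in WT. For AT5G10910 the SD of the log2 signal was 0.0465 in WT and 0.181 in ppi1, a ratio of 3.90. This ratio was at the 95.5 percentile of the 2862 features with no array at the floor, of which 67.5% had the wider spread in ppi1. For AT1G76050 the SDs were 0.126 and 0.325, a ratio of 2.57 at the 88.5 percentile. AT4G29750 had SDs of 0.194 and 0.290, and its ratio was at the 61.9 percentile of those features, whose median ratio was 1.27.

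For all 3 genes, adjacent replicates of a group differed less, in the median, than its other pairs of arrays did. Arrays of 1 such set differed by a median of 0.0800 on the log2 scale for AT5G10910, 0.106 for AT1G76050 and 0.106 for AT4G29750. Arrays of different sets within a group differed by 0.119, 0.234 and 0.308. Single pairs went against this, as ppi1 replicates 3 and 4 did for AT1G76050, which were 0.396 apart.

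Taken by replicate number, ppi1 was higher than WT in 6 of 6 for AT5G10910 and for AT1G76050, and lower in 6 of 6 for AT4G29750. These arrays also chose the genes, so the counts are no separate support. The size of the difference was not the same in each set. AT4G29750 differed by -1.29 and -1.26 in replicates 1 and 2, by -0.61 and -0.58 in replicates 3 and 4, and by -0.36 and -0.39 in replicates 5 and 6. Its set means thus spanned 0.90 on the log2 scale, at the 92.5 percentile of the 2862 features, whose median was 0.35, while the 2 numbers of a set differed by at most 0.0342.

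The methyltransferase and pseudouridine synthase genes had their largest difference where the CRM-domain gene had its smallest. AT5G10910 differed by 0.33 in replicates 1 and 2, by 0.22 in replicates 3 and 4, and by 0.60 in replicates 5 and 6 (set means). AT1G76050 differed by 0.36, 0.48 and 0.81 in the same sets, though replicates 3 and 4 themselves were apart, at 0.69 and 0.27. The spans of 0.38 and 0.45 between sets were at the 54.7 and 63.6 percentile of the same features. With 3 sets, whether the size of the difference varied between them was not tested.

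**Figure D2:**
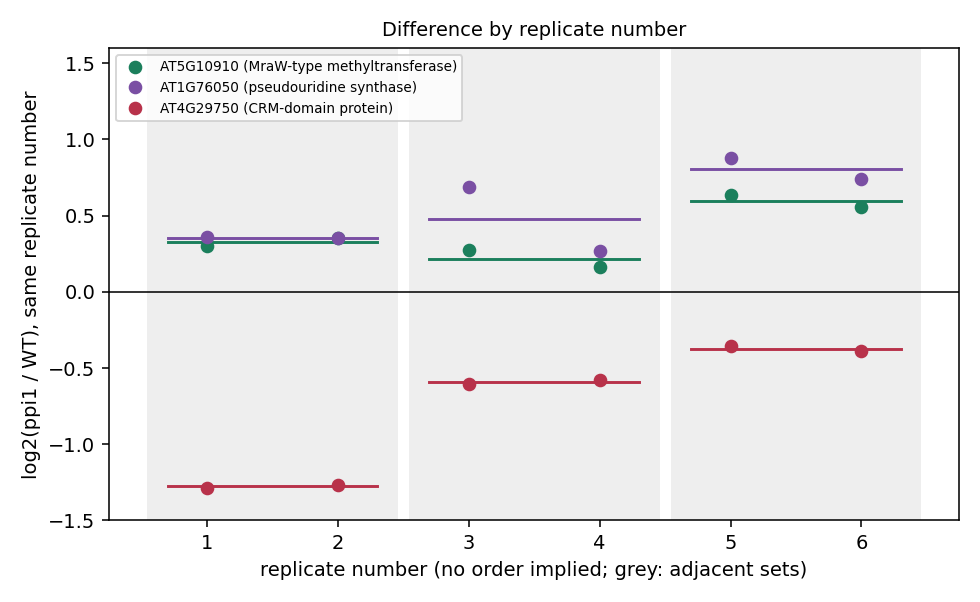
Log2 ratio of ppi1 over WT for each replicate number (points) and the mean of each set of adjacent replicates (short lines, grey bands). The AT4G29750 difference runs from -1.29 to -0.36, and the AT1G76050 and AT5G10910 differences are largest in replicates 5 and 6.

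The scaling between arrays altered the sizes but not the directions. On the scale of the deposited intensities, where the median over all features was 0.21 higher in ppi1 on the log2 scale, the groups did not overlap for any of the 3. The share of all features without overlap was not computed on that scale, so nothing is read from this. There 909 features passed the threshold, 805 as higher and 104 as lower in ppi1. AT5G10910 was then 0.862 ± 0.0446 in WT and 1.25 ± 0.152 in ppi1, AT1G76050 was 0.508 ± 0.0405 and 0.890 ± 0.207, and AT4G29750 was 4.21 ± 0.520 and 2.37 ± 0.450 (SD, n = 6 each). When each array was divided by its median, 1 ppi1 array of AT5G10910 and 1 of AT1G76050 lay within the WT range, and none of AT4G29750. The log2 differences were 0.25, 0.51 and -1.12 with that scaling, against 0.38, 0.55 and -0.75 after quantile normalisation. With median scaling AT4G29750 was at 4.64 ± 0.437 in WT and 2.15 ± 0.300 in ppi1 (SD, n = 6 each).

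**Figure D3:**
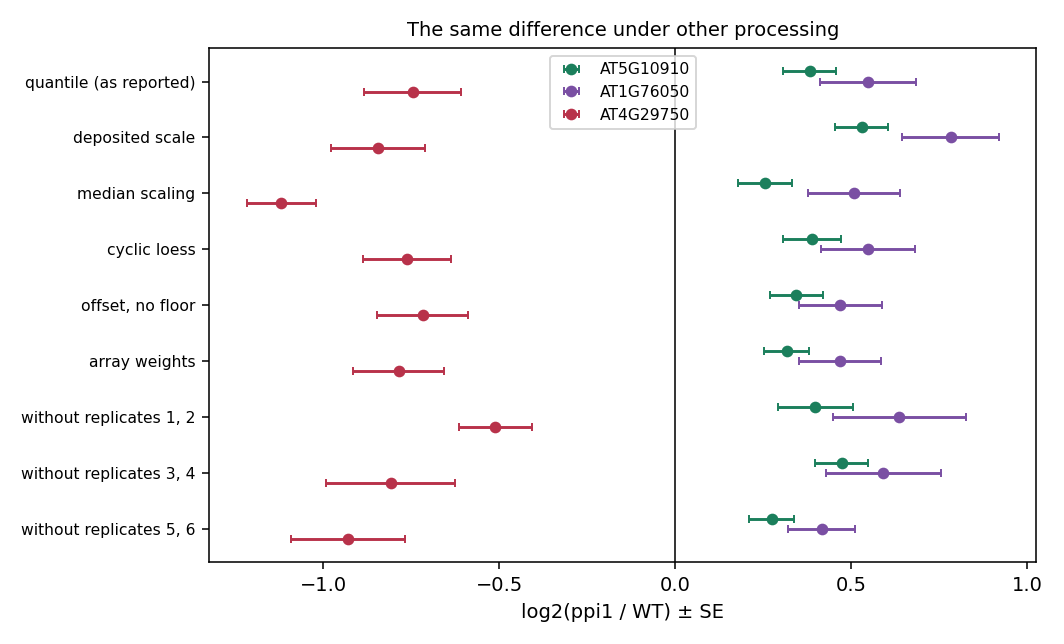
Log2 ratio of ppi1 over WT ± SE for the 3 genes after quantile normalisation and under 8 other ways of processing. Each gene keeps its side of 0, and the AT4G29750 value is smallest in size without replicates 1 and 2 (-0.51) and largest with median scaling (-1.12).

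A ratio of 2 features on the same array does not depend on the scale of that array. On the deposited intensities the log2 ratio of AT1G76050 over AT4G29750 was higher in ppi1 than in WT by 1.63 (SE 0.168), and that of AT5G10910 over AT4G29750 by 1.37 (SE 0.138). Every ppi1 array lay above every WT array in both ratios, which is no separate support because the genes were chosen for differences of opposite sign. Relative to its WT mean, the first ratio ran from -0.27 to 0.34 in WT and from 1.05 to 2.04 in ppi1. The ratio of the 2 transcripts that were higher, AT5G10910 over AT1G76050, was lower in ppi1 by 0.25 (SE 0.0873), or by 0.17 (SE 0.0866) after quantile normalisation.

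AT5G10910 and AT1G76050 were compared in their course over the 12 arrays. After each gene was centred on its own mean, they differed by 0.160 on the log2 scale (root mean square over 12 arrays). From AT4G29750 they differed by 0.616 and 0.710. AT5G10910 and AT1G76050 were chosen as higher and AT4G29750 as lower in ppi1, so these distances follow in part from the choice. The single-gene features most like each of them by this measure were taken from 559 features with no array at the floor, the 3 genes themselves left out, and since the measure includes the difference between groups, the likeness is again a description.

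Closest to AT5G10910 were AT1G15410 (0.117), AT5G52960 (0.124) and FBL17 (0.130), the last an F-box protein that acts in the cell cycle, against a median of 0.303 over the 559. Closest to AT1G76050, again apart from the 3 genes, were AT5G52960 (0.155), AT3G21810 (0.156) and AT3G32930 (0.166), against a median of 0.399. AT5G52960 thus stood near both, and it went from 0.299 ± 0.0274 in WT to 0.420 ± 0.0703 in ppi1 (SD, n = 6 each). Closest to AT4G29750 were AT4G19900 (0.146), AT5G63290 (0.175) and AT3G04650 (0.190), against a median of 0.493. AT4G19900 went from 5.71 ± 0.398 to 3.50 ± 0.973 (SD, n = 6 each), a log2 difference of -0.76.

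Of the other measured genes of these families, 1 passed the threshold as higher in ppi1 and 0 passed as lower, and nothing is read from these counts. Lists of 15 CRM-domain, 18 pseudouridine synthase and 32 RNA methyltransferase loci, placed in these families from general knowledge of the Arabidopsis genome, held 7 further genes with a feature of their own. Of the 7, 1 passed as higher (3.15% of all features did), 0 passed as lower (5.29%), 1 had an unadjusted p under 0.05 in limma, 5 had a positive and 2 a negative log2 difference. Their median was 0.13, beside 0.0050 over all features. The 6 that did not pass had adjusted p from 0.376 to 0.878 in limma.

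The gene that passed was AT3G28460, listed among the RNA methyltransferases as AT5G10910 is. It ranged from 0.527 to 0.593 in WT, with a median of 0.573, and from 0.597 to 0.670 in ppi1, with a median of 0.637. The groups did not overlap, as for 6.09% of all features, and ppi1 was higher in 6 of 6 replicate numbers. Both come from the same arrays as the call and are no separate support. The means were 0.568 ± 0.0241 in WT and 0.640 ± 0.0271 in ppi1 (SD, n = 6 each), a log2 difference of 0.17 (SE 0.0382, adjusted p = 0.0178 in limma). It passed in 17 of 26 alternatives, among them all 12 that left out 1 array, with adjusted p from 0.000242 to 0.303 over the 26. The 9 in which it missed the threshold included adjacent replicates averaged (adjusted p = 0.303) and each fit without 1 set of adjacent replicates (0.0580, 0.0599 and 0.0990).

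The other 3 measured RNA methyltransferases had positive differences that did not pass. AT3G13180 was 0.358 ± 0.0559 in WT and 0.399 ± 0.0642 in ppi1 (SD, n = 6 each), a log2 difference of 0.15 (SE 0.140, adjusted p = 0.615 in limma). Without WT replicate 5 the difference was 0.0720, and without ppi1 replicate 5 it was 0.259. AT3G56330 was 0.849 ± 0.101 and 0.873 ± 0.0942, a difference of 0.04 (SE 0.0898, adjusted p = 0.878 in limma). It was at -0.05 with median scaling. AT1G50000 was close to the floor, with 3 arrays on it, and had a log2 difference of 0.22 (SE 0.237, adjusted p = 0.663 in limma). Without ppi1 replicate 1 its difference was -0.0095.

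AT3G27550, the other measured CRM-domain gene, lay on the opposite side of 0 from AT4G29750. It ranged from 1.05 to 1.39 in WT, with a median of 1.20, and from 1.12 to 1.47 in ppi1, with a median of 1.34, so the groups overlapped. Within each of the 6 replicate numbers ppi1 was the higher array. The means were 1.19 ± 0.119 and 1.30 ± 0.131 (SD, n = 6 each), a log2 difference of 0.13 (SE 0.0814, adjusted p = 0.376 in limma). With the replicate number as a block it passed (SE 0.0251, adjusted p = 0.0218 in limma), while with median scaling the difference was -0.03 (adjusted p = 0.914). These were the lowest and the highest adjusted p over 26 alternatives. The difference between the 2 CRM-domain genes was not tested, because AT4G29750 was chosen for its own.

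The other 2 measured pseudouridine synthases had negative log2 differences that did not pass. AT2G30320 was 1.02 ± 0.0787 in WT and 0.978 ± 0.0626 in ppi1 (SD, n = 6 each), a log2 difference of -0.07 (SE 0.0605, adjusted p = 0.603 in limma). On the deposited scale it was at 0.10. AT4G21770 ranged from 0.766 to 1.63 in WT and from 0.750 to 1.43 in ppi1, a log2 difference of -0.15 (SE 0.246, adjusted p = 0.814 in limma). ppi1 was the lower array in 6 of 6 replicate numbers, and with the number as a block the SE was 0.0428 and the adjusted p 0.0668 in limma. Leaving out single arrays moved the difference between -0.287 (without WT replicate 6) and -0.0365 (without ppi1 replicate 6). Replicates 5 and 6 were its lowest arrays in both groups, at 0.861 and 0.766 in WT and 0.816 and 0.750 in ppi1.

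**Figure D4:**
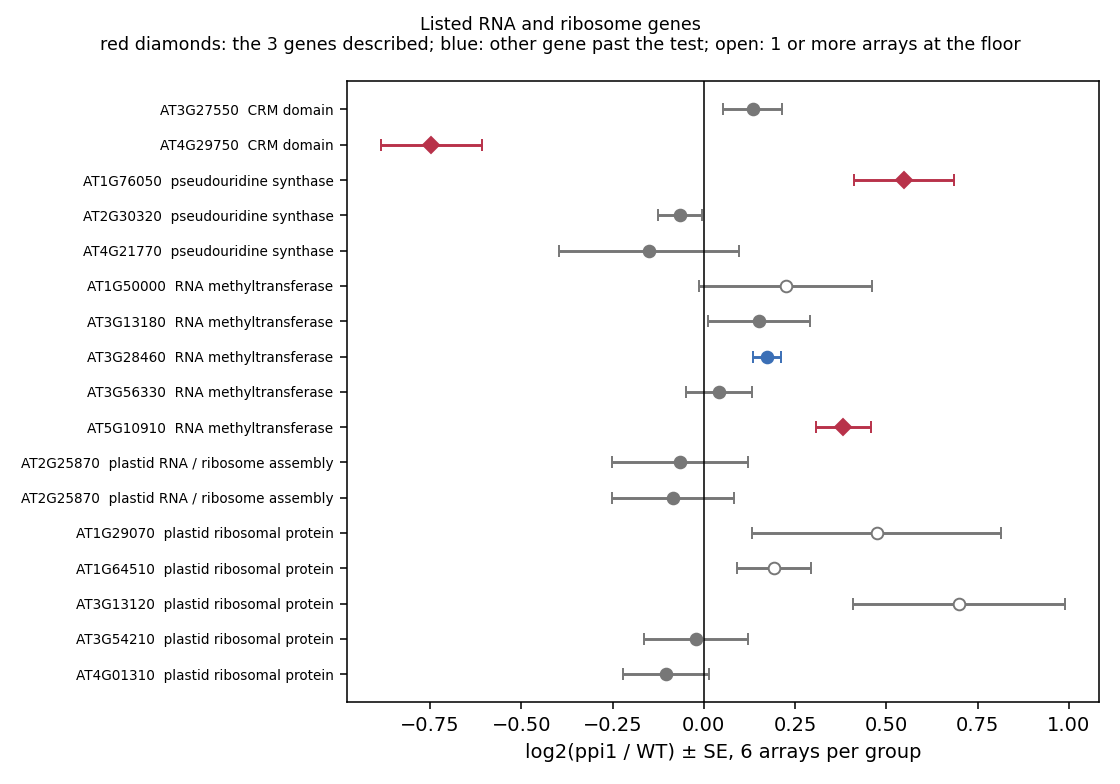
Log2 ratio of ppi1 over WT ± SE (6 arrays per group) for the 3 genes described and the other listed genes with a feature of their own, grouped by list. AT5G46420, at the floor on every array, is left out. Besides the 3 genes, which were chosen by this ratio, AT3G28460 passed the test, and the 2 widest intervals, of AT1G29070 and AT3G13120, belong to features with arrays at the floor.

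A list of 29 genes of plastid RNA splicing, RNA stability and ribosome assembly held 2 with features of their own. AT2G25870 had 2 features, with log2 differences of -0.07 (SE 0.187, adjusted p = 0.923) and -0.09 (SE 0.167, adjusted p = 0.861) in limma. After centring, these 2 features of 1 gene differed by 0.153 on the log2 scale (root mean square over 12 arrays). Both were at positive values on the deposited scale, 0.14 and 0.12. AT5G46420, the other gene, was at the floor on 12 of 12 arrays and gave no measurement.

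Transcripts of nuclear-encoded proteins of the plastid ribosome were measured for 5 of 38 listed genes. Of these, 0 passed in limma, where 8.44% of all features did, and 1 had an unadjusted p under 0.05 in limma. The log2 difference was positive for 3 and negative for 2. Their median was 0.19, beside 0.0050 over all features. It was the value of AT1G64510, which had 6 arrays at the floor. AT3G13120 had the largest difference, 0.70 (SE 0.291, adjusted p = 0.187 in limma), at levels of 0.170 ± 0.0466 in WT and 0.288 ± 0.112 in ppi1 (SD, n = 6 each). It passed on the deposited scale alone (1.01, adjusted p = 0.0126), with adjusted p up to 0.595 over 25 alternatives. The 3 with positive values, AT3G13120, AT1G29070 and AT1G64510, had 1, 4 and 6 arrays at the floor, and the 2 with negative values, AT4G01310 (-0.10) and AT3G54210 (-0.02), had 0. The AT4G01310 value was -0.168 without ppi1 replicate 3 and -0.0396 without WT replicate 4. Of 16 markers of non-green, senescent or reproductive tissue, 0 had a feature of their own, so the share of such tissue in the samples was not measured here.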

How the data were processed

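The authors deposited 1 intensity per feature and array, linear and never negative; the sources used here do not say how background and scale were treated. Summed deposited intensities were 3380 to 3582 in WT and 3598 to 3689 in ppi1. Groups and replicate numbers came from the sample titles.

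The 74 features at 0 on every array were left out. Intensities were quantile-normalised between arrays, set to a floor of 0.118 (the 5th percentile of positive values) and put on the log2 scale. limma 3.58.1 in R 4.3.3 (lmFit, eBayes, no covariate, two-sided, Benjamini-Hochberg over 3365 features) gave the differences of ppi1 from WT. The same fit was first run on simulated data with independent arrays, which cannot check its SEs or calls where arrays are correlated. p-values of the 3 genes are not given because this fit chose them. Precision is limited by the 6 arrays per group, or by 3 sets if adjacent replicates are repeats.

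Gene names came from the platform annotation, with symbols updated through gene identifiers (assembly TAIR10.1). Close relatives of a gene may contribute to its feature. Genes named beside the 3 were every measured gene of each list with 5 or fewer, and the 3 features most like each of the 3 genes. A list by words was not made, since no gene descriptions were used here. The members, lists, sets of adjacent replicates and alternatives were chosen with earlier results of these data known. Deviations from the group means correlated at 0.379 to 0.590 between WT and ppi1 arrays of one number, and in 6 of 6 cases best with their own number. By this check, which comes from the data and not from the labels, the numbers pair the arrays. The fit reported leaves the pairing out, and so do its SEs and adjusted p. Blocking on the number is an alternative, given mainly where it changes a call or a count. With the block the SEs of AT5G10910, AT1G76050 and AT4G29750 were 0.0696, 0.0956 and 0.159, against 0.0750, 0.137 and 0.137 without it. Adjusted p in limma went from 0.187 to 0.0663 for AT3G13120 and from 0.0178 to 0.0293 for AT3G28460.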

Additional observations from a re-analysis of the deposited data

Results flagged for a closer look

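Dixon's test was applied to 34 groups of 6 values, those of the 3 genes and of the listed genes, and marked 1 array in each of 2 groups. By chance about 1 group in 20 is marked. No value of AT5G10910, AT1G76050 or AT4G29750 was among them. For AT1G50000, replicate 1 of ppi1 stood at 0.340 while the remaining ppi1 arrays lay between 0.118 and 0.144, some of them at the floor. For AT3G13180, replicate 5 of ppi1 stood at 0.270 while the remaining ppi1 arrays lay between 0.409 and 0.439, and replicate 5 was also the lowest of the WT arrays, at 0.270. The log2 difference of AT3G13180 was 0.259 without that ppi1 array and 0.0720 without that WT array.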

How the results depend on the processing

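AT5G10910, AT1G76050 and AT4G29750 kept their direction in all 25 alternatives that give a size, over 0.25 to 0.53, 0.42 to 0.78 and -1.12 to -0.51. The same arrays chose the genes, so this is no separate support. Some alternatives, such as the replicate block and adjacent replicates averaged, alter only the SE, so the direction could not change in them. Sizes moved by over 1 SD for AT5G10910 on the deposited scale (0.53) and for AT4G29750 with median scaling (-1.12); with replicates 1 and 2 of both groups left out, a setting chosen after seeing the data, AT4G29750 was at -0.51. The threshold that chose them was missed in 4 of 26 alternatives by AT5G10910, 12 by AT1G76050 and 2 by AT4G29750, and by all 3 with adjacent replicates averaged, which leaves 3 values per group. AT5G10910 missed it with median scaling and AT1G76050 in the exact permutation test over 924 splits, and without any 1 of WT replicates 1 to 5 or of ppi1 replicates 3 and 6.

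The 284 calls (106 higher, 178 lower) became 909 on the deposited scale (805, 104), 416 with median scaling (80, 336), 517 with the replicate block (250, 267), 4 with adjacent replicates averaged (0, 4), 99 as a random block (28, 71) and 135 without replicates 3 and 4. The 1 call among listed genes became 2 on the deposited scale and with the replicate block, and 0 with cyclic loess, the offset, dim features left out, the intensity trend, both settings for adjacent replicates, and each set left out. The replicate block added the call of AT3G27550 and changed no other call of a listed gene.

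Signs changed, always without a call, on the deposited scale for AT2G25870 (0.14 and 0.12), AT2G30320 (0.10), AT3G54210 (0.11) and AT4G01310 (0.12), with median scaling for AT3G27550 (-0.0261) and AT3G56330 (-0.0515), with cyclic loess for AT3G54210 (0.0166) and with the offset for AT1G50000 (-0.15). Leaving out single arrays took AT3G54210 from -0.0758 to 0.0637, AT1G50000 from -0.0095 to 0.30, AT2G25870 from -0.183 to 0.0130 and from -0.17 to 0.0095, AT3G56330 from -0.0092 to 0.0854, and, with no change of sign, AT2G30320 from -0.110 to -0.0390 and AT1G29070 from 0.267 to 0.634. Without replicates 1 and 2, AT1G50000 was at -0.0074. Without replicates 3 and 4, AT2G25870 was at 0.0430 and AT3G54210 at 0.10. Without replicates 5 and 6, AT3G54210 was at 0.0021 and AT4G01310 at 0.0242. The causes were not tested.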
